A study of Rattus norvegicus with 138 samples.

Results

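The rostral ventrolateral medulla (RVLM) of female Wistar-Kyoto (WKY) rats was compared between 24 and 12 wk of age, over every gene measured. The members were the 6 RVLM libraries of these groups, 3 per age, out of 46 from the RVLM and 46 from each of the other 2 regions of the series, and they were chosen by strain, region and age alone. The series profiled 3 cardiovascular regions of the medulla in WKY/NHsd rats, the normotensive control strain, and in spontaneously hypertensive rats (SHR) at ages of 8 and 10 wk, 12 and 16 wk, and 24 wk. All animals were female, the WKY rats came from Envigo, and each rat gave 1 library per region from bilateral punches of frozen sections, so that the 3 rats of an age are separate animals. A 1 mm punch takes neurons, glia, vessels and fibres of passage together, and it limits each library as a model of the nucleus. The comparison asks how the RVLM transcriptome of the control strain differs between the last age and the middle age of the series.

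The RVLM lies near the ventral surface of the medulla and holds the presympathetic neurons that drive sympathetic outflow to the heart, vessels and adrenal medulla. Many of them are C1 neurons, which make catecholamines with tyrosine hydroxylase (Th), dopamine beta-hydroxylase (Dbh) and phenylethanolamine N-methyltransferase (Pnmt) and release glutamate loaded by the vesicular transporter Slc17a6. Their firing is set by glutamate input from the NTS, by GABA from the caudal ventrolateral medulla (CVLM), and by angiotensin, peptides and local glia. Descending fibre bundles cross the area, so that oligodendrocytes and their myelin add much of the RNA in a punch.

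The 6 libraries held 8437230 to 11031018 counts assigned to genes. Levels below are CPM, counts scaled to a common library size with TMM factors, and differences are log2 fold changes of 24 over 12 wk, so that a negative value is a lower level at 24 wk. Rat 3 of 24 wk stood apart from the others. Its log2 levels had a median correlation of 0.922 with the other 45 RVLM libraries, the second lowest of the 46, and mitochondrial genes took 10.7% of its counts, against 6.79% to 7.50% at 12 wk. Rat 1 of 24 wk was at 9.21% and rat 2 at 6.56%. Markers of the C1 group set other libraries apart. Th was at 7.85 CPM in rat 1 of 12 wk and at 9.47 CPM in rat 1 of 24 wk, the lowest levels of all 46 RVLM libraries, where the 40 libraries not compared here ran from 12.2 to 144 CPM.

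By edgeR's quasi-likelihood test no gene reached the threshold of an adjusted p of 0.05, 0 of 13411 (0%), and the lowest adjusted p was 0.239, shared by 8 genes. At an unadjusted p under 0.05 there were 1210 genes, 9.02% of those tested. Of these, 911 were lower at 24 wk (6.79% of all genes) and 299 higher (2.23%), so that 75.3% were lower. Levels of the ages did not overlap, with all 3 rats of one age above all 3 of the other, in 1316 genes lower at 24 wk (9.81%) and 1321 higher (9.85%). The median difference over all genes was 0.0015 and the median standard error 0.27, with quartiles of 0.20 and 0.40.

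The balance of lower and higher genes moved when rat 3 of 24 wk was left out. This rat was the lowest of the 3 rats of its age in 702 of the 911 lower genes (77.1%), against 37.65% of all genes tested. Without it, 486 genes had an unadjusted p under 0.05, 259 of them lower (1.93%) and 227 higher (1.69%), or 53.3% lower. Without rat 1 of both ages, which had the least Th, 514 genes were lower (3.83%) and 204 higher (1.52%), and the test again called 0 genes. Without rat 3 of 12 wk, 553 of 13411 genes had an unadjusted p under 0.05, and their split by direction was not counted. DESeq2's Wald test called 11 genes of 13411 (0.082%), 10 lower (0.0746%) and 1 higher (0.00746%), and 7 of them are among the 6 higher and the 6 lower genes described next, those with the smallest edgeR p of each direction.

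**Figure D1:**
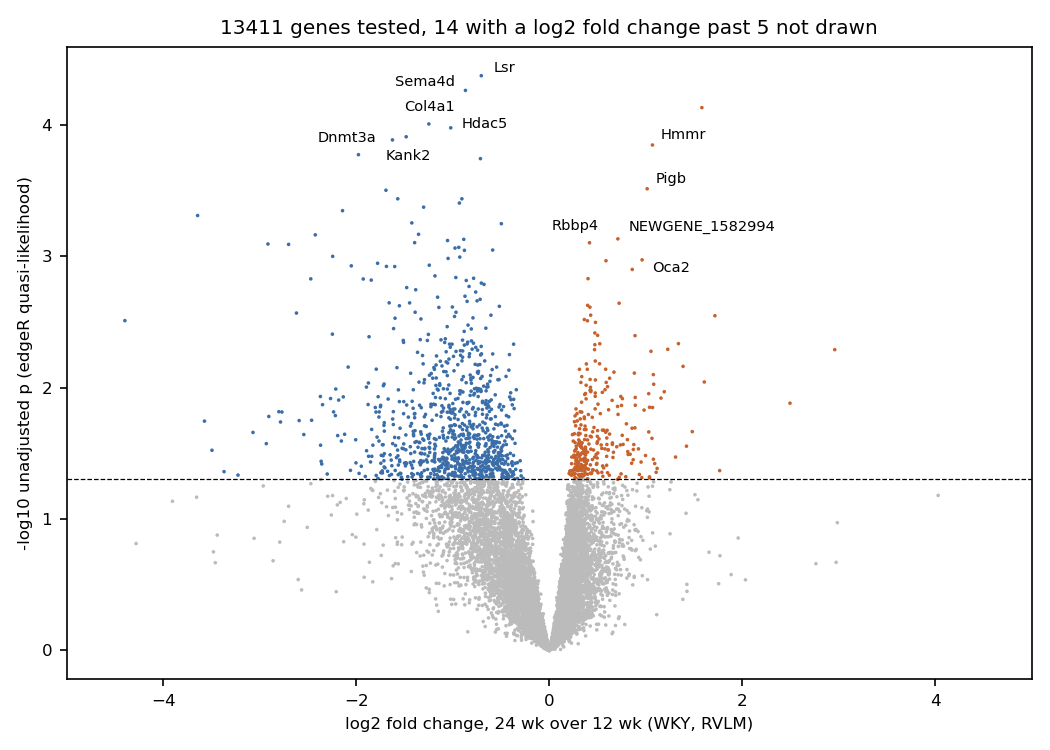
Each point is 1 of 13411 genes in the RVLM of WKY rats, with its log2 fold change of 24 over 12 wk on the x axis and the -log10 of its unadjusted p from edgeR's quasi-likelihood test on the y axis. The dashed line marks the unadjusted threshold, blue points above it are the 911 lower genes and orange points the 299 higher ones, and 14 genes beyond a log2 fold change of 5 are not drawn.

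Among the 6 genes with the smallest p values of those higher at 24 wk, Hmmr, the hyaluronan receptor RHAMM, was at 3.47, 3.16 and 2.76 CPM at 12 wk and at 8.23, 6.36 and 5.15 CPM at 24 wk, a log2 fold change of 1.07 ± 0.25 (SE, edgeR adjusted p = 0.239). Oca2, a transporter of melanosomes, was at 7.62, 5.50 and 7.74 CPM at 12 wk and 14.5, 12.7 and 13.4 CPM at 24 wk (0.96 ± 0.27). In both genes all 24 wk rats lay above all 12 wk rats.

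Pigb adds a mannose in the synthesis of glycosylphosphatidylinositol anchors, and its level was 3.35, 3.34 and 2.32 CPM at 12 wk and 4.86, 6.67 and 6.70 CPM at 24 wk (1.01 ± 0.26). Rbbp4, a histone chaperone of several chromatin complexes, had the smallest size among them, with 55.2, 61.1 and 64.1 CPM at 12 wk and 76.2, 88.4 and 76.2 CPM at 24 wk (0.42 ± 0.11). The unnamed model NEWGENE_1582994 was at 24.0, 26.9 and 26.8 CPM at 12 wk and at 39.6, 43.2 and 44.3 CPM at 24 wk (0.71 ± 0.19).

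Among lower genes, Lsr, a tricellular junction protein of the blood-brain barrier and receptor for lipoproteins, had the smallest p of the whole comparison. Its CPM was 15.0, 13.3 and 14.6 at 12 wk and 8.60, 9.64 and 8.02 at 24 wk, which gave -0.70 ± 0.15 (edgeR adjusted p = 0.239). Sema4d, a semaphorin made by oligodendrocytes that acts through plexin B receptors, was at 98.6, 110.8 and 122 CPM at 12 wk and at 55.1, 75.4 and 50.9 CPM at 24 wk (-0.87 ± 0.19). Col4a1, a chain of the type IV collagen of vascular basement membranes, was at 14.6, 13.7 and 17.4 CPM at 12 wk and at 7.11, 6.46 and 5.62 CPM at 24 wk (-1.25 ± 0.29). In all these genes each 24 wk rat was below each 12 wk rat.

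Hdac5, a class IIa histone deacetylase, was at 123, 151 and 136 CPM at 12 wk and 72.1, 74.1 and 55.9 CPM at 24 wk (-1.02 ± 0.24). Kank2, an adaptor of focal adhesions, was at 7.04, 8.21 and 14.0 CPM at 12 wk and 3.37, 5.33 and 1.68 CPM at 24 wk (-1.48 ± 0.35). Dnmt3a, the de novo DNA methyltransferase, was the exception to the separation, with 1.96, 5.59 and 6.52 CPM at 12 wk and 1.99, 1.95 and 0.598 CPM at 24 wk (-1.62 ± 0.38). Its rat 1 of 12 wk was level with rats 1 and 2 of 24 wk, and leaving that rat out gave -1.99 with an edgeR adjusted p of 0.0315. That setting called 2 genes.

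**Figure D2:**
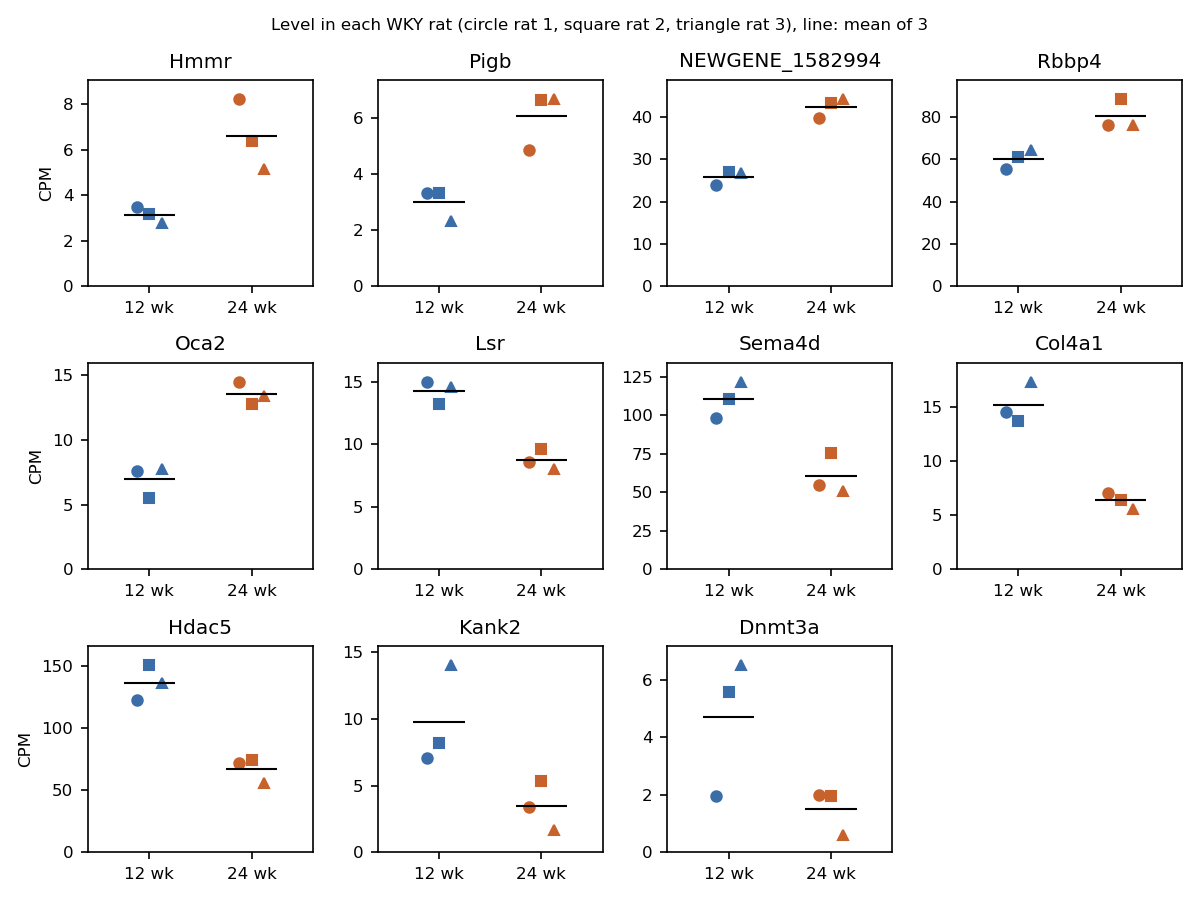
CPM of 11 genes with the smallest p values of their direction, 5 higher and 6 lower at 24 wk, in each of the 3 WKY rats at 12 wk (blue) and 24 wk (orange). Lines are means of 3 rats, each panel has its own axis from 0, and Dnmt3a is the panel in which the ages overlap.

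The other 4 genes that DESeq2 called were Tcf3, Tp53inp2, MGC94199 and LOC100912498, named here after their values were seen. Tcf3, an E-protein transcription factor, was at 12.1, 11.8 and 12.2 CPM at 12 wk and at 2.99, 4.41 and 1.68 CPM at 24 wk (-1.98 ± 0.48 in edgeR). Tp53inp2, which acts in autophagosome formation, was at 205, 211 and 217 CPM at 12 wk and at 146, 140.4 and 99.3 CPM at 24 wk (-0.71 ± 0.17). MGC94199 (the gene model ENSRNOG00000049287, as another model carries the same symbol) and LOC100912498 had counts in rat 2 of 12 wk alone, 109 and 86, and 0 in the other 5 rats, so that 1 library decides both calls.

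The catecholamine and neuronal markers that identify the region gave no direction with age. Th was at 7.85, 55.5 and 67.6 CPM at 12 wk and 9.47, 77.7 and 54.0 CPM at 24 wk. Dbh followed the same order of rats, at 1.73, 8.57 and 17.8 CPM and then 1.62, 11.5 and 11.5 CPM, and Pnmt was at 5.197, 24.9 and 30.6 CPM and then 6.48, 32.7 and 30.03 CPM. The spread within an age was thus wider than any distance between ages, with differences of 0.11 (95% confidence interval -1.15 to 1.37) for Th, -0.19 (-1.76 to 1.38) for Dbh and 0.19 (-1.39 to 1.77) for Pnmt. These intervals hold changes of more than 2-fold in either direction.

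Slc17a6 was at 115.8, 102 and 109 CPM at 12 wk and 68.1, 118 and 119 CPM at 24 wk (-0.10, interval -0.77 to 0.57). Chat, the enzyme of acetylcholine synthesis found in the neighbouring nucleus ambiguus, was at 208, 269 and 179 CPM and then 307, 189 and 257 CPM (0.20, interval -0.54 to 0.93). The serotonin enzyme Tph2 was at 4.16, 3.43 and 2.54 CPM and then 2.62, 1.85 and 2.15 CPM (-0.62, interval -1.87 to 0.64), while Slc6a4 had at most 7 counts and Fev at most 1. Of the 12 genes listed for C1 neurons 9 were tested, none had an unadjusted p under 0.05, and their median difference was 0.0092.

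Lists of genes for cell types and pathways were described by how many members were lower or higher and by their median, beside the values for all genes given above. Of all genes 9.81% were lower and 9.85% higher without overlap. At an unadjusted p under 0.05, 6.79% were lower, or 1.93% without rat 3 of 24 wk and 3.83% without rat 1 of both ages. Over 37 lists 647 distinct genes were tested. By edgeR 0 were called, 59 were lower and 11 higher at an unadjusted p under 0.05, and 21 lists had a median below that of all genes. With rat 3 of 24 wk left out, 26 of the 59 and 5 of the 11 still had an unadjusted p under 0.05 in the same direction. Members at an unadjusted p under 0.05 numbered 70 with all rats and 36 without that rat. Without rat 3 of 12 wk they numbered 35, and that setting is not given list by list below. In bulk punches, fewer cells of a type and less RNA per cell cannot be told apart.

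Myelin genes of mature oligodendrocytes stood out by count. Of 20 tested, 11 were lower at an unadjusted p under 0.05 and none higher, where 6.79% of all genes were lower. Without overlap 13 were lower, where 9.81% of all genes were. Their median was -0.39. They included the lineage transcription factor Sox10, the structural proteins Mbp, Mag, Mobp, Mal and Cnp, and the enzymes of myelin lipids Fa2h, Ugt8 and Gal3st1. The summed CPM of the list was 58895, 54839 and 58836 at 12 wk and 39976, 45184 and 48742 at 24 wk, with every 24 wk rat below every 12 wk rat. Mog, Opalin, Pllp, Cldn11, Ermn, Tf, Myrf, Aspa and Car2 had larger p values, with differences between -0.42 and 0.02.

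Members differed in how far they depended on rat 3 of 24 wk. Sox10 was at 100.4, 97.6 and 96.1 CPM at 12 wk and at 39.5, 63.5 and 16.03 CPM at 24 wk (-1.30 ± 0.34, edgeR adjusted p = 0.355). Fa2h, the fatty acid 2-hydroxylase of galactolipids, was at 85.2, 84.4 and 89.2 CPM and then 30.2, 58.6 and 12.2 CPM (-1.35 ± 0.37). In both, rat 3 was the lowest by a wide margin. Mal, a proteolipid of compact myelin, was at 711, 708 and 692 CPM at 12 wk and 458, 558 and 570.2 CPM at 24 wk (-0.41 ± 0.14), and Ugt8, which makes galactosylceramide, was at 456, 485 and 610.1 CPM and then 277, 323 and 375 CPM (-0.67 ± 0.23). In these rat 3 was the highest of its age. Without rat 3, 7 of the 11 lower myelin genes were still lower at an unadjusted p under 0.05, and the list's median was -0.37, while without rat 1 of both ages 3 of the 11 were, with a median of -0.27. Of the 13 tested genes of precursors and immature oligodendrocytes 1 was lower, Olig2 (-1.56 ± 0.76), with overlapping ages.

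Cholesterol synthesis, on which myelin membranes depend, had 5 of 21 tested genes lower at an unadjusted p under 0.05 and a median of -0.14. Without overlap 8 were lower, where 9.81% of all genes were. The summed CPM was 4173, 4202 and 4539 at 12 wk and 3542, 3758 and 3545 at 24 wk. Cyp51, the lanosterol demethylase, was at 407, 423 and 493 CPM at 12 wk and 305, 352 and 367 CPM at 24 wk (-0.37 ± 0.12). Hmgcs1, which makes HMG-CoA, was at 559, 628 and 699 CPM and then 463, 496 and 540.5 CPM (-0.33 ± 0.15). Insig1, which holds back the sterol response, was at 394, 415 and 460.1 CPM and then 242, 357 and 47.7 CPM (-0.97 ± 0.41), with rat 3 far below the other rats. Lss was among the lower genes too, and 9 genes, Fdft1, Fdps, Mvk, Nsdhl, Sc5d, Idi1, Ebp, Sqle and Stard4, had differences from -0.10 to 0.07. Of the 5 lower genes 3 were still lower at an unadjusted p under 0.05 without rat 3 of 24 wk, and 2 without rat 1 of both ages.

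Genes induced by interferon were the list with the lowest median, -0.77, and 23 of 24 tested members had a difference below 0. Of the 24, 9 were lower at an unadjusted p under 0.05 and none higher, where 6.79% of all genes were lower. Without overlap 9 were lower, where 9.81% of all genes were. Isg15, a ubiquitin-like modifier, was at 17.2, 20.7 and 26.0 CPM at 12 wk and at 9.35, 9.33 and 9.69 CPM at 24 wk (-1.17 ± 0.42, edgeR adjusted p = 0.551). Ifi44 was at 10.6, 13.2 and 15.04 CPM at 12 wk and 8.48, 7.18 and 7.54 CPM at 24 wk (-0.74 ± 0.27). In both the 24 wk rats were close together and below every 12 wk rat.

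The guanylate-binding proteins Gbp2 and Gbp5, GTPases of innate defence, were at few counts in every rat. Gbp2 was at 6.58, 6.77 and 5.42 CPM at 12 wk and 1.496, 4.51 and 2.51 CPM at 24 wk (-1.12 ± 0.37), and Gbp5 at 2.54, 2.89 and 2.54 CPM and then 1.37, 1.64 and 0.479 CPM (-1.17 ± 0.43). The remaining lower members were Mx2, Rtp4, Rsad2, Ifit2 and Oas1a, between -1.04 and -0.74. Rat 3 of 24 wk was the lowest of its age in 4 of the 24 tested members, and without it the list's median was -0.78 with 7 members lower at an unadjusted p under 0.05. Without rat 1 of both ages it was -0.77 with 5 lower. The sum was 763, 830.5 and 825 CPM at 12 wk and 659, 658 and 693 CPM at 24 wk. Microglial genes had a median of 0.12 over 19 genes, with none at an unadjusted p under 0.05, and MHC genes had 2 of 19 lower (RT1-T24-4 and RT1-A1), neither of them without rat 3 of 24 wk, in a family whose reads can be split between copies.

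Collagens had a median of -0.61 over 16 tested genes, with 6 lower at an unadjusted p under 0.05 and none higher. Without overlap 7 were lower, where 9.81% of all genes were. The 6 were the basement membrane chains Col4a1 and Col4a2, the fibrillar chains Col3a1, Col5a3 and Col11a2, and Col9a3. Col3a1 was at 3.70, 3.61 and 4.86 CPM at 12 wk and at 1.62, 0.923 and 1.32 CPM at 24 wk (-1.66 ± 0.51, edgeR adjusted p = 0.457). Col11a2 was at 19.98, 25.4 and 33.8 CPM and then 10.9, 10.5 and 14.2 CPM (-1.16 ± 0.35), and Col5a3 was at 10.3, 12.2 and 15.7 CPM and then 4.61, 6.56 and 6.22 CPM (-1.13 ± 0.39). The sum over the list was 122, 131 and 154 CPM at 12 wk and 83.8, 71.0 and 87.7 CPM at 24 wk. Without rat 3 of 24 wk 5 members were lower and the median was -0.66, and without rat 1 of both ages 6 were lower with a median of -0.60.

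Cells that make or border these collagens were described beside them. Of 16 endothelial genes 3 were lower. They were the vascular growth factor receptor Flt1 (-0.79 ± 0.29), the angiopoietin receptor partner Tie1 (-0.64 ± 0.23) and the amino acid transporter Slc7a5 (-1.32 ± 0.58). Of the 16, 11 had differences below 0, and the median was -0.16. Without overlap 4 were lower (25%), where 9.81% of all genes were. Tek, Cdh5 and Kdr lay between -0.48 and -0.33, and Cldn5, Vwf, Emcn and Slc2a1 between -0.13 and 0.06. Without rat 3 of 24 wk Flt1 was at -0.40, and of the 3 genes lower with all rats Tie1 alone kept an unadjusted p under 0.05. In that setting Tek (-0.60) was lower at an unadjusted p under 0.05 as well. Of 16 genes of leptomeninges and fibroblasts 2 were lower, Col3a1, which is in both lists, and Igfbp2 (-1.19 ± 0.57), which was not without rat 3. Of the 16, 14 had differences below 0, and the median was -0.22. Of 12 pericyte and smooth muscle genes none was lower at an unadjusted p under 0.05. Their median was -0.23, with 10 of 12 below 0. Without rat 3 of 24 wk 2 were lower, Pdgfrb and Cspg4, where 1.93% of all genes were, and the median was -0.32. Choroid plexus and ependyma, which a punch near a ventricle could hold, had 4 of 12 and 13 of 24 listed genes tested, with sums of 245 to 334 CPM and of 28.6 to 34.0 CPM in the 6 libraries. The defining choroid plexus markers Ttr, Folr1 and Otx2 had at most 24, 2 and 0 counts in any of them. The part of vascular or meningeal cells in the collagen values was not tested.

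**Figure D3:**
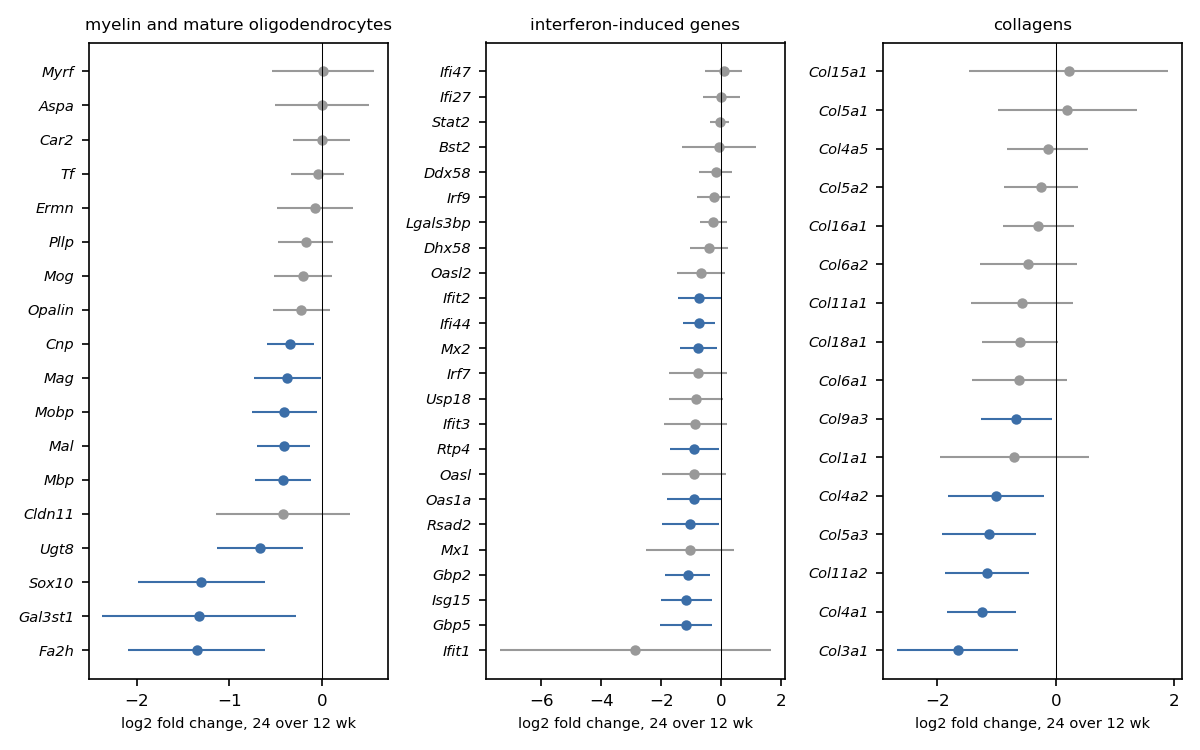
Log2 fold change of 24 over 12 wk with its 95% confidence interval for 18 of 20 tested members of the myelin list and for each of the interferon and collagen lists, in the RVLM of WKY rats. Members with an unadjusted p under 0.05 are blue (9, 9 and 6 genes drawn) and the others grey, and most points lie below 0 in each panel.

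Genes of the perineuronal net, the chondroitin sulphate matrix around neurons, had 3 of 11 lower and a median of -0.25. The lectican neurocan (Ncan) was at 27.9, 45.5 and 39.7 CPM at 12 wk and 18.3, 17.3 and 9.33 CPM at 24 wk (-1.33 ± 0.42). Brevican (Bcan) was at 483, 488 and 481 CPM and then 319, 346 and 102 CPM (-0.92 ± 0.31). The link protein of nodes of Ranvier, Hapln2, was at 145.7, 100.1 and 136 CPM and then 48.0, 102 and 2.27 CPM (-1.32 ± 0.65), with overlapping ages and a level in rat 3 far below all other rats. Aggrecan (Acan), the core of mature nets, was at -0.13 ± 0.38. Without rat 3 of 24 wk, 1 of the 11 was lower.

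Astrocytes had 2 of 15 genes lower, the receptor Fgfr3 (-1.04 ± 0.36) and the transcription factor Sox9, and a median of -0.0024. Sox9 was at 40.9, 38.1 and 45.6 CPM at 12 wk and 26.7, 29.0 and 4.07 CPM at 24 wk (-1.06 ± 0.39). Without rat 3 of 24 wk, none of the 15 had an unadjusted p under 0.05. The same held for the 2 lower adrenergic receptors, Adra1d, at 16.5, 10.6 and 14.6 CPM and then 4.36, 5.85 and 1.68 CPM (-1.80 ± 0.71), and Adra2c, a presynaptic brake on noradrenaline release with at most 3.10 CPM (-2.30 ± 1.11).

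Sgk1 had the widest difference among glucocorticoid-responsive genes. This kinase, induced by corticosteroids and abundant in oligodendrocytes, was at 87.8, 83.1 and 74.2 CPM at 12 wk and at 195, 208 and 402 CPM at 24 wk (1.72 ± 0.54, edgeR adjusted p = 0.488). Nfkbia, the inhibitor of NF-kappaB, was at 26.8, 21.4 and 28.9 CPM and then 37.8, 39.1 and 51.8 CPM (0.74 ± 0.28). Every 24 wk rat was above every 12 wk rat in both, and rat 3 was the highest. The other 13 tested members had larger p values. The list's median was 0.20, with 9 of 15 members above 0 and 6 below. Fkbp5 was at -0.46 ± 0.42, with every 24 wk rat below every 12 wk rat. Mt1, Map3k6 and Klf9 lay between -0.48 and -0.39. Once rat 3 was left out, 1 gene of the list was higher at an unadjusted p under 0.05. Clock genes were mixed, with Per1 and Rorb higher and Cry2, Tef and Bhlhe41 lower among 17. Of these 5, Tef alone kept an unadjusted p under 0.05 without rat 3 of 24 wk. Per1 was at 0.924, 1.17 and 0.663 CPM at 12 wk and 1.496, 2.67 and 2.75 CPM at 24 wk (1.31 ± 0.60), and the time of day of collection was not analysed here.

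Receptors, channels and transmitters of neurons showed few differences by this count. Of 24 glutamate receptor and transporter genes 3 were lower (Grik4, Grik5 and Grin1), and rat 3 of 24 wk was the lowest rat in each, without which none of the 3 kept an unadjusted p under 0.05. Grin1, the obligatory NMDA receptor subunit, was at 83.2, 93.5 and 93.5 CPM at 12 wk and 55.9, 88.2 and 22.9 CPM at 24 wk (-0.69 ± 0.34). Of 13 GABA-A receptor subunits 1 was lower and 1 higher, Gabrb1 (0.34 ± 0.16). Of 24 neuropeptide genes 1 was lower, Vgf, a granin-like precursor, at 19.6, 14.2 and 28.3 CPM and then 9.22, 10.9 and 2.75 CPM (-1.44 ± 0.51). None of 9 renin-angiotensin genes and none of 16 neurofilament and axon genes had an unadjusted p under 0.05, with medians of -0.18 and 0.06. Of 28 sodium and potassium channels 1 was higher, Kcnip4 (0.37 ± 0.17), and 24 had differences below 0. Neither Vgf nor Kcnip4 kept an unadjusted p under 0.05 without rat 3 of 24 wk.

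Ribosomal and respiratory genes lay slightly above 0. The 73 ribosomal protein genes, a family with many processed copies, had a median of 0.14 and none at an unadjusted p under 0.05, and the 62 nuclear genes of oxidative phosphorylation had a median of 0.16 with 3 higher, among them Atp5f1a and Atp5f1b, and 1 of the 3 still so without rat 3 of 24 wk. Without overlap, 10 of the 62 (16.1%) and 5 of the 73 (6.85%) were higher, where 9.85% of all genes were. The summed ribosomal level was 7769, 6640 and 6320 CPM at 12 wk and 9161, 6669 and 6928 CPM at 24 wk, with overlap. Of 19 genes of the heat shock and unfolded protein response 14 had differences above 0. Without overlap 6 were higher (31.6%) and 1 lower (5.26%), where 9.85% and 9.81% of all genes were. Hspa8, the constitutive chaperone, was at 2591, 2610.3 and 2440 CPM and then 3331, 2891 and 2988 CPM (0.27 ± 0.13). The inducible Hspa1a was at 1.85, 4.51 and 5.75 CPM and then 1.12, 0.923 and 0 CPM (-2.54 ± 1.07). Hspa8 kept an unadjusted p under 0.05 without rat 3 of 24 wk, and Hspa1a did not.

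**Figure D4:**
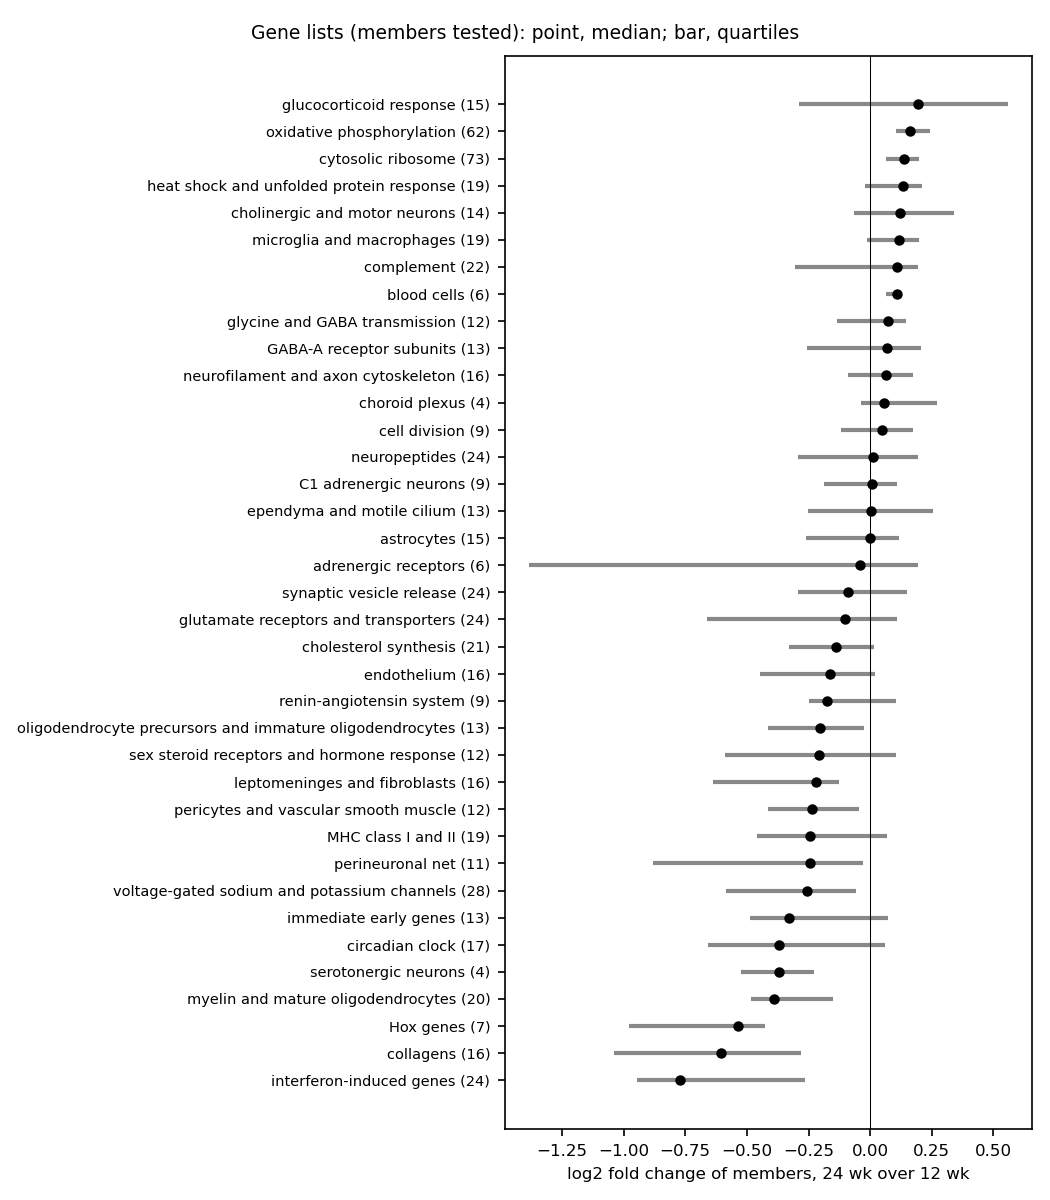
Median (point) and quartiles (bar) of the log2 fold change of 24 over 12 wk over the tested members of each of 37 gene lists in the RVLM of WKY rats, with the number tested in brackets. Interferon-induced genes (-0.77), collagens (-0.61) and Hox genes (-0.54, 7 genes with few counts) have the lowest medians, and glucocorticoid response (0.20) the highest.

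The 3 ages before and between placed these values in the course of WKY rats. Comparisons with 16 wk share the 24 or 12 wk rats with the main one. The test called 0 genes (0%) for 24 against 16 wk, where 850 had an unadjusted p under 0.05 (6.34%), with a lowest edgeR adjusted p of 0.690. It also called 0 (0%) for 16 against 12 wk, with 176 (1.31%) and a lowest edgeR adjusted p of 1. The myelin median was -0.27 from 16 to 24 wk and -0.09 from 12 to 16 wk. That of interferon-induced genes was -0.25 and -0.38 over the same steps, and that of collagens -0.44 and -0.12.

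The named genes were chosen for their difference between 12 and 24 wk, which favours extremes at these ages. Column names end in 2 for every WKY library of 10 wk and for rats 3, 4 and 5 of 8 wk. They end in 1 for all WKY libraries of 12, 16 and 24 wk. What this number stands for is not given, and at 10 wk it cannot be told apart from age. Among 5 ages, the mean of Lsr, Sema4d, Col4a1, Hdac5 and Kank2 was highest at 12 wk and lowest at 24 wk, and that of Hmmr, Pigb and NEWGENE_1582994 was lowest at 12 wk and highest at 24 wk. For Hdac5, rats of 8 wk ran from 65.0 to 107 CPM and those of 10 wk from 62.6 to 114 CPM, which includes the levels of 2 of the 3 rats of 24 wk. For Lsr, rats of 8, 10 and 16 wk ran from 9.13 to 14.1, from 9.58 to 11.1 and from 10.2 to 12.6 CPM. The summed interferon level was lowest at 10 wk, from 504 to 617 CPM, which is below the 24 wk rats. As those libraries differ in the number that ends their column names, no course with age is read from this. Myelin sums ran from 42442 to 74686 CPM at 8 wk and from 44391 to 68893 CPM at 16 wk, ranges that hold the 12 wk rats and 2 of the 24 wk rats.

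**Figure D5:**
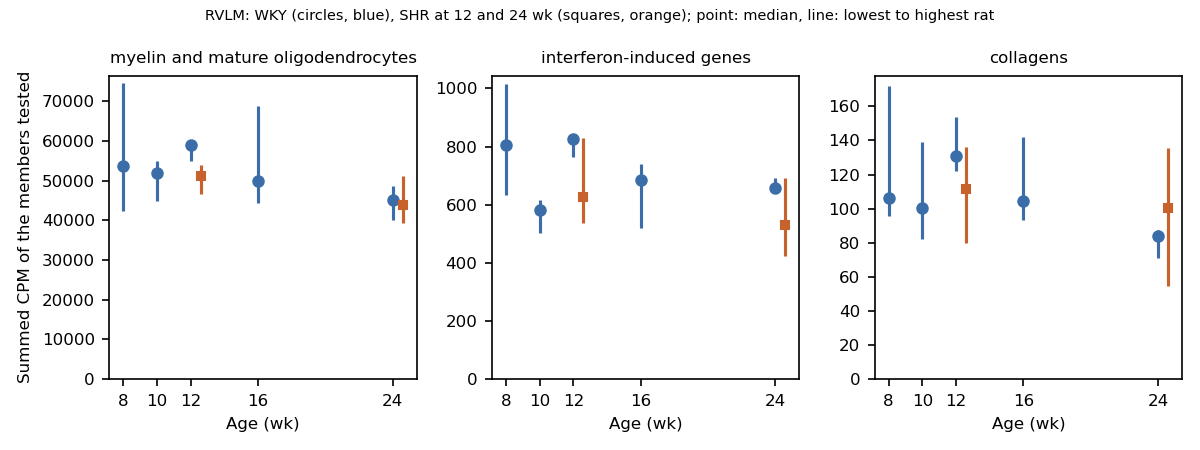
Summed CPM of the tested members of the myelin, interferon and collagen lists in the RVLM against age in wk, for WKY rats (blue circles, 3 to 5 rats per age) and for 6 SHR at 12 and at 24 wk (orange squares). Points are medians and lines run from the lowest to the highest rat. In WKY the 24 wk rats lie below the 12 wk rats in each panel.

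SHR of the same ages, 6 per age, were used to see whether the WKY difference was particular to the strain. Column names end in 2 for rat 6 of the SHR at 12 and at 24 wk. They end in 1 for the other SHR and all WKY libraries of these ages. In SHR alone the test called 0 genes for 24 against 12 wk (0%), with a lowest edgeR adjusted p of 0.196 and with 379 higher (2.83%) and 692 lower (5.16%) at an unadjusted p under 0.05. The difference between strains in the change with age was called for 0 genes (0%), with 691 at an unadjusted p under 0.05 (5.15%) and a lowest edgeR adjusted p of 0.749, so that no gene can be said to be particular to WKY. Without rat 1 of the 12 wk SHR, left out after its ribosomal level was seen, 199 were higher (1.48%) and 375 lower (2.8%) in SHR, and 335 (2.5%) had an unadjusted p under 0.05 for the difference between strains, again with 0 called. DESeq2 called 2 genes in this contrast, the same MGC94199 and LOC100912498, whose WKY counts at these ages came from 1 rat of 12 wk. Col4a1 was at 8.22 to 16.5 CPM and then 7.16 to 14.6 CPM in SHR, and the difference of its age effects, SHR less WKY, was 1.02. This gene was named for its small p in WKY, which favours a smaller difference in SHR.

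By list, the median change in SHR was -0.24 for myelin, with 9 of 20 genes at an unadjusted p under 0.05, -0.34 for interferon-induced genes and -0.14 for collagens. Beside these stand the WKY medians of -0.39, -0.77 and -0.61. Of the same lists 1, 1 and 4 members had an unadjusted p under 0.05 for the difference between strains. Ribosomal and respiratory genes had medians of -0.52 and -0.49 in SHR, with 44 of 73 and 33 of 62 at an unadjusted p under 0.05, where the WKY medians were 0.14 and 0.16. For the difference between strains 1 and 12 of them had an unadjusted p under 0.05, and none was called by edgeR. These values rested on rat 1 of the 12 wk SHR, whose ribosomal sum was 14372 CPM where the other 5 ran from 4098 to 7825 CPM, and whose respiratory sum was 44104 CPM where they ran from 16736 to 25197 CPM. Without it the SHR medians were -0.20 and -0.17, with 1 of 73 and 0 of 62 at an unadjusted p under 0.05 and none for the difference between strains. Those of myelin, interferon-induced genes and collagens were then -0.24, -0.41 and -0.21.

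The NTS and CVLM of the same 6 rats were compared with the RVLM in 1 model over the libraries of all 3 regions with the rat as a term. The change with age differed between RVLM and NTS in 0 genes (0%) and between RVLM and CVLM in 0 genes (0%) by edgeR's adjusted p, whose lowest value was 1 in both, and 347 (2.59%) and 448 (3.34%) had an unadjusted p under 0.05. Tested alone, the NTS had 0 of 13793 genes called (0%) and the CVLM 6 of 13408 (0.0447%). The log2 fold change of Sgk1 was 1.69 in the NTS and 1.57 in the CVLM against 1.72 in the RVLM. Col4a1 was at -0.17 in the NTS and -0.30 in the CVLM against -1.25, and the RVLM less the other region gave -1.06 ± 0.35 and -0.95 ± 0.35 (edgeR adjusted p = 1 in both). Both genes were named for a small p in the RVLM, which favours a wider difference there than in the other regions. No difference particular to the RVLM is read from these values.

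The same lists in the other regions of these rats stand beside the RVLM as values. The median of collagens was -0.54 in the NTS and -0.74 in the CVLM, and that of interferon-induced genes -0.44 and -0.64, with 11 of 23 members below without overlap in the CVLM, where 5.63% of all genes were. Myelin genes had a median of 0.18 in the NTS, with none of 20 lower without overlap, and -0.20 in the CVLM, with 4 of 20. In the NTS 4.11% of all genes were lower without overlap. Mal was at 0.23 in the NTS and -0.19 in the CVLM against -0.41 in the RVLM. No difference in a list's median between regions was tested as such.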

How the data were processed

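RNA of 1 library per rat and region was prepared and sequenced by a service laboratory. According to the methods, reads were aligned with STAR in RSEM to the rat genome rn6, and the deposited values are RSEM expected counts per gene, which the authors did not normalize (4.88% of values in the RVLM table are not whole). The methods name ComBat_seq for batches, and whether the deposited expected counts carry it is not given in the sources used here. Strand is not given either.

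Expected counts were rounded. Genes were kept when the largest value after DESeq2's rlog reached 3.5, the study's filter, which left 13411 of 32883. One edgeR 4.0.16 model (R 4.3.3, TMM, robust glmQLFit, glmQLFTest) held all 46 RVLM libraries in 10 groups of strain and age, which share 1 estimate of the spread, and p values over all genes were adjusted with the Benjamini-Hochberg method, with calls at 0.05. Standard errors are the fold change over the square root of F. DESeq2 1.42.0 and limma 3.58.1 served as alternatives, and the fits were tested on simulated data. Each rat of an age is a separate animal, and groups follow the sample titles. For a CVLM library of each strain the title and the sample characteristics gave different ages, and the title was followed. These libraries enter the fits that hold the CVLM, outside the groups compared. The lowest chi-square per gene between replicates was 9.42, so that none is a repeated library.

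Genes are named by rule, the 6 higher and 6 lower genes with the smallest p and a mean of at least 20 counts, leaving out clone names, then the region's markers and up to 4 members per list with the smallest p, further genes being named as such or as the rest of a list. Some genes that the rule or the lists hold are not reported here. The members and lists were chosen with earlier results of these data known. Same-numbered rats of both ages had correlations of 0.20, -0.24 and -0.11 between their deviations. Rats of unlike number had -0.18 to 0.28, so that these few values cannot show whether the numbers pair rats. The rats of the ages are separate animals, and no pairing was used. Promoter sequences were not used, as fewer than the needed share of genes matched them by symbol.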

Additional observations from a re-analysis of the deposited data

Results flagged for a closer look

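For the 12 genes with the smallest p values of their direction, each group of 4 to 6 rats whose levels the comparison draws on (WKY of 8 and 10 wk, SHR of 12 and 24 wk) was checked for a rat far from its group, 48 groups in all, and 4 were marked. About 1 in 20 groups is marked by chance. In WKY of 8 wk, Pigb was at 1.46 CPM in rat 3, where the next rat was at 4.31 CPM and the highest at 5.25 CPM. In the same rat Oca2 was at 15.1 CPM, with the next at 7.92 CPM, and Kank2 at 5.69 CPM, with the next at 7.71 CPM. Col4a1 was at 24.4 CPM in rat 1 of 8 wk, with the next at 12.6 CPM, so that the highest level of Col4a1 in WKY lay outside both ages compared. Rat 3 of 8 wk, in which 3 of the 4 lay, stood apart as a library, with the lowest median correlation with the other 45 (0.906) and with 11.8% of its counts from mitochondrial genes.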

How the results depend on the processing

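The count of 0 genes called for 24 against 12 wk was also 0 with DESeq2's size factors, without a filter on low counts, with filterByExpr, with only the 6 libraries or the 18 WKY libraries, with the number that ends the column names as a term, with limma voom, at the stricter threshold of 0.01 and a log2 fold change of 1, and without rat 1 of both ages, which was added after the data had been seen. DESeq2's Wald test called 11 genes, and gave no adjusted p for 1301. With the replicate number as a block, 0 genes were called, with a lowest edgeR adjusted p of 0.0716. At an unadjusted p under 0.05 there were 1511 genes with this block and 1210 without it. The same block left 0 called for the difference between strains. Leaving out 1 rat at a time gave 0 to 2 calls, with Dnmt3a among the 2 without rat 1 of 12 wk and Fam50a, named after its values were seen, without rat 2 of 12 wk. Counts at an unadjusted p under 0.05 ran from 486 without rat 3 of 24 wk and 553 without rat 3 of 12 wk to 1823 without rat 2 of 24 wk. The difference between strains had 0 calls without each of the 6 WKY rats and without rat 1 of the 12 wk SHR, added after the data had been seen, and 2 with DESeq2. The difference between RVLM and NTS had 0 to 1 calls (Clic6, without rat 1 of 12 wk) and that between RVLM and CVLM 0, as with limma voom. Members of lists had 0 calls in the edgeR settings run for them, and DESeq2's Wald test called 1, Col4a1. The 6 higher and 6 lower genes with the smallest p of their direction kept their direction in all settings. They were chosen by p in these same libraries, which favours a kept direction. Kank2 lay between -1.95 and -1.12 and Dnmt3a between -1.99 and -1.22.

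There were 3 rats per age and the median standard error was 0.27. Differences of the size of most list medians were thus not detectable gene by gene. The balance of lower and higher genes moved when rat 3 of 24 wk was left out. Genes at few counts, such as Dnmt3a and Gbp5, had wide intervals.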

Other observations

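Further lists were described in the same way. Of 13 tested immediate early genes 1 was lower at an unadjusted p under 0.05, the AP-1 subunit Jun, at 61.4, 58.7 and 62.3 CPM in the 12 wk rats and at 38.9, 46.05 and 5.86 CPM in the 24 wk rats (-1.004 ± 0.49), and the list's median was -0.33, or -0.02 without rat 3 of 24 wk. Of 14 genes of cholinergic and motor neurons 1 was lower, the peptidase Ecel1, at 222, 140.3 and 184 CPM and then 79.8, 106.5 and 33.6 CPM (-1.31 ± 0.56). The motor neuron factor Isl1 was at 33.8, 38.5 and 25.9 CPM and then 55.5, 41.4 and 46.3 CPM (0.54 ± 0.29, an unadjusted p above 0.05). Prph (-0.89 ± 0.50) and Isl2 (-2.51 ± 1.56) also had an unadjusted p above 0.05. Without overlap 3 of the 14 were lower (21.4%) and 1 higher (7.14%), where 9.81% and 9.85% of all genes were. Of 24 genes of vesicle release the synaptotagmin Syt4 was higher, at 224, 274 and 251 CPM and then 341, 276 and 323 CPM (0.33 ± 0.13), and the priming factor Unc13a lower (-1.20 ± 0.59). Syt4 kept an unadjusted p under 0.05 without rat 3 of 24 wk, and Jun, Ecel1 and Unc13a did not.

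Of 12 genes of sex steroid receptors and hormone response 2 were lower. The membrane oestrogen receptor Gper1 was at 6.00, 4.15 and 5.42 CPM and then 3.37, 2.46 and 3.47 CPM (-0.74 ± 0.28), with no overlap, and the growth factor receptor Igf1r overlapped (-0.77 ± 0.38). Without rat 3 of 24 wk, Gper1 alone of the pair had an unadjusted p under 0.05. No member of the lists for complement (22 tested), cell division (9), blood cells (6), serotonergic neurons (4), glycine and GABA transmission (12), ependyma (13), choroid plexus (4) or Hox genes (7) had an unadjusted p under 0.05, with medians of 0.11, 0.05, 0.11, -0.37, 0.07, 0.0026, 0.06 and -0.54.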
